A study of Mus musculus with 2 samples.

Results

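The interferon response and IRF genes are 34 mouse genes taken from the 55573 genes listed in the deposited tables, chosen by name for their place in the pathway. They hold the type I interferon receptor, interferon regulatory factors (IRFs), sensors of viral RNA, antiviral effectors and feedback inhibitors. All 34 matched 1 gene identifier in both tables and had at least 11 reads over both libraries together. The data are 2 RNA-seq libraries of mesenteric artery from wild type C57BL/6 mice, 10 weeks old, each pooled from 2 mice. Control arteries were kept in 5 mM K+ and depolarized arteries in 60 mM K+, 60 min in each case, and all solutions held tetrodotoxin to silence nerves. According to the methods, control tissue was the distal part of the ligated bed, harvested before the rest was perfused with 60 mM K+, so that segment and time in solution cannot be told apart from K+. With 1 library per condition, differences could not be set against replicate spread, and p-values are left out. The libraries held 10480918 control and 11289598 depolarized reads on genes.

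Type I interferons bind the receptor chains Ifnar1 and Ifnar2 and activate the kinases Jak1 and Tyk2. A complex that holds Stat2 and Irf9 then binds the interferon-stimulated response element (ISRE) of target genes. Interferon-gamma acts through the gamma-activated site (GAS). Irf1 differs from most other members in that cytokines which activate NF-kB or STAT proteins can induce it directly, without an interferon.

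The promoters of 3 members are shown: the member with the largest increase, a member with ISRE matches and a member that was lower in depolarized arteries. They are RefSeq sequences on GRCm38.p6, from 250 bases before the transcription start to 50 bases after it, written 5′ to 3′ on the strand of the gene. Capitals mark matches to the ISRE core GAAANNGAA, the GAS motif TTCNNNGAA or the NF-kB consensus. The Irf1 promoter (chr11:53769764-53770063, plus strand) holds 1 GAS match, TTCCCCGAA, from -90 to -82, and 1 NF-kB match, GGGGAATCCC, from -13 to -4, with the start counted as 0. The Isg15 promoter (chr4:156200769-156201068, minus strand) holds 3 overlapping ISRE matches between -78 and -58. The Ifit2 promoter (chr19:34550444-34550743, plus strand) holds overlapping GAS and NF-kB matches near its far end. Irf1 and Ifit2 each have another RefSeq start, whose window held no match. Matches outside these windows were not looked for.
Irf1: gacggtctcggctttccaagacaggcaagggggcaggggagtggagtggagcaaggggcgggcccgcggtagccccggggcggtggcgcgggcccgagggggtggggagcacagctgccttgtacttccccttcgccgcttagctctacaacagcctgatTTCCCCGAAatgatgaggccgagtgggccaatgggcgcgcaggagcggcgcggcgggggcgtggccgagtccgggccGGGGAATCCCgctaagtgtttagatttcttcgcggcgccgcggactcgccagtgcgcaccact
Isg15: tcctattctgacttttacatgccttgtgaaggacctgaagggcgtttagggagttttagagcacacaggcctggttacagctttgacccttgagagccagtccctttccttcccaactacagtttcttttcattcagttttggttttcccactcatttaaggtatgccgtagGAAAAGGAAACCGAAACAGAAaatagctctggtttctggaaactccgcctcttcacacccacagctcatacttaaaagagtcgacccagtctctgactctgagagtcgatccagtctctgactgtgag
Ifit2: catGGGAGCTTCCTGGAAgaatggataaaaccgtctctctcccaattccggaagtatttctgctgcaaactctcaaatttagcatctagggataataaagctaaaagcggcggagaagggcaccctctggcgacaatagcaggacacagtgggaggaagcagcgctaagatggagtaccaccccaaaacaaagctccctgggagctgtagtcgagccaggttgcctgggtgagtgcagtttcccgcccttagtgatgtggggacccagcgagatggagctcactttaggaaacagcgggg

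The deposited FPKM values, which are scaled by gene length and total reads, give the level of each gene. In control arteries the members ranged from 0.371 FPKM for Mx1 to 85.1 FPKM for Irf1, with a median of 8.21. In depolarized arteries they ranged from 0.287 FPKM for Mx1 to 153 FPKM for Irf1, with a median of 8.05. After division by the TMM factors the medians were 7.64 and 8.65 FPKM, in the opposite order. Irf1, Bst2 and Irf3 held the first 3 places in both libraries. Irf1 made up 16.3% of the summed FPKM of the members under 5 mM K+ and 26.2% under 60 mM K+. Without Irf1, this sum was 438 FPKM in control and 431 FPKM in depolarized arteries as deposited, and 407 and 463 FPKM after division by the TMM factors. At least 10 FPKM were listed in both libraries for 14 members, and less than 1 FPKM in both for Mx1, Oas2 and Ifi44.

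**Figure D1:**
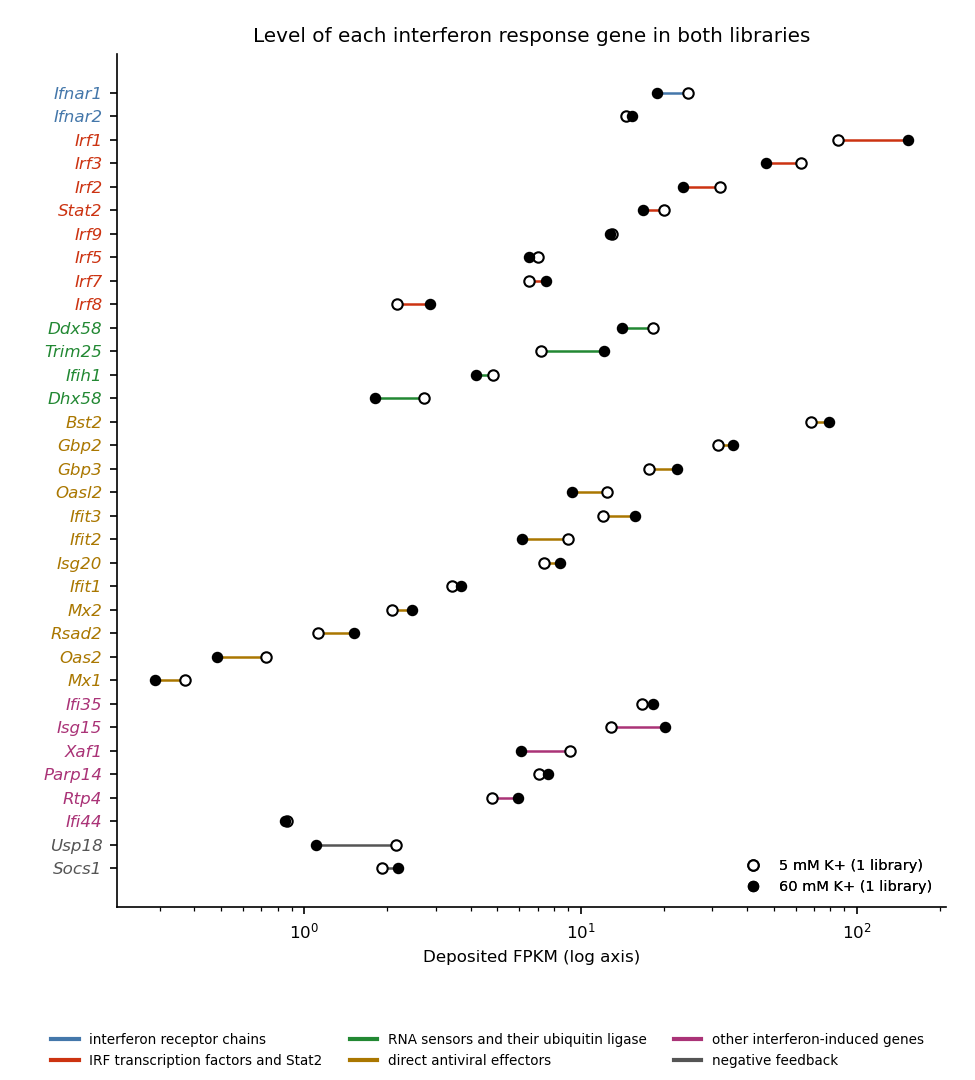
Deposited FPKM (log axis) of each of the 34 genes in the 5 mM K+ library (open circles) and the 60 mM K+ library (filled circles), grouped by role. Irf1 had the highest level in both, 85.1 and 153 FPKM, and most other pairs of circles lie close together.

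Each difference is given as log2(fold-change), 60 mM K+ over 5 mM K+, with library sizes scaled by the TMM method of edgeR and a 95% Clopper-Pearson interval that covers counting error only. Thresholds were those of the study, q below 0.005 together with a log2(fold-change) beyond 1 in either direction, but the calls given here come from a recomputed test that rests on counting error alone, and they are not the study's own, shorter list. With the random-sampling test recomputed on the reads, which compares those libraries and not the conditions, 1 of 34 members, Irf1, was past both thresholds and higher in depolarized arteries. Irf1 is on the study's list as well, also as higher. Over all 21374 genes with a read, 2.11% were past both in that direction. No member was past both in the other direction (0 of 34), compared with 1.10% of all genes. By the counting interval alone, 12 of 34 members (35.3%) lay wholly above 0, and 25.0% of the 14829 genes with at least 10 reads did. Wholly below 0 lay 3 members (8.82%), compared with 20.3% of all genes. The other 19 intervals reached across 0. The median log2(fold-change) of the members was 0.30, and it was -0.0047 over all genes. Scaling by total counts lowered every value by 0.21, which left 7 intervals of members wholly above 0 and 8 wholly below, compared with 13.6% and 38.4% of all genes.

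**Figure D2:**
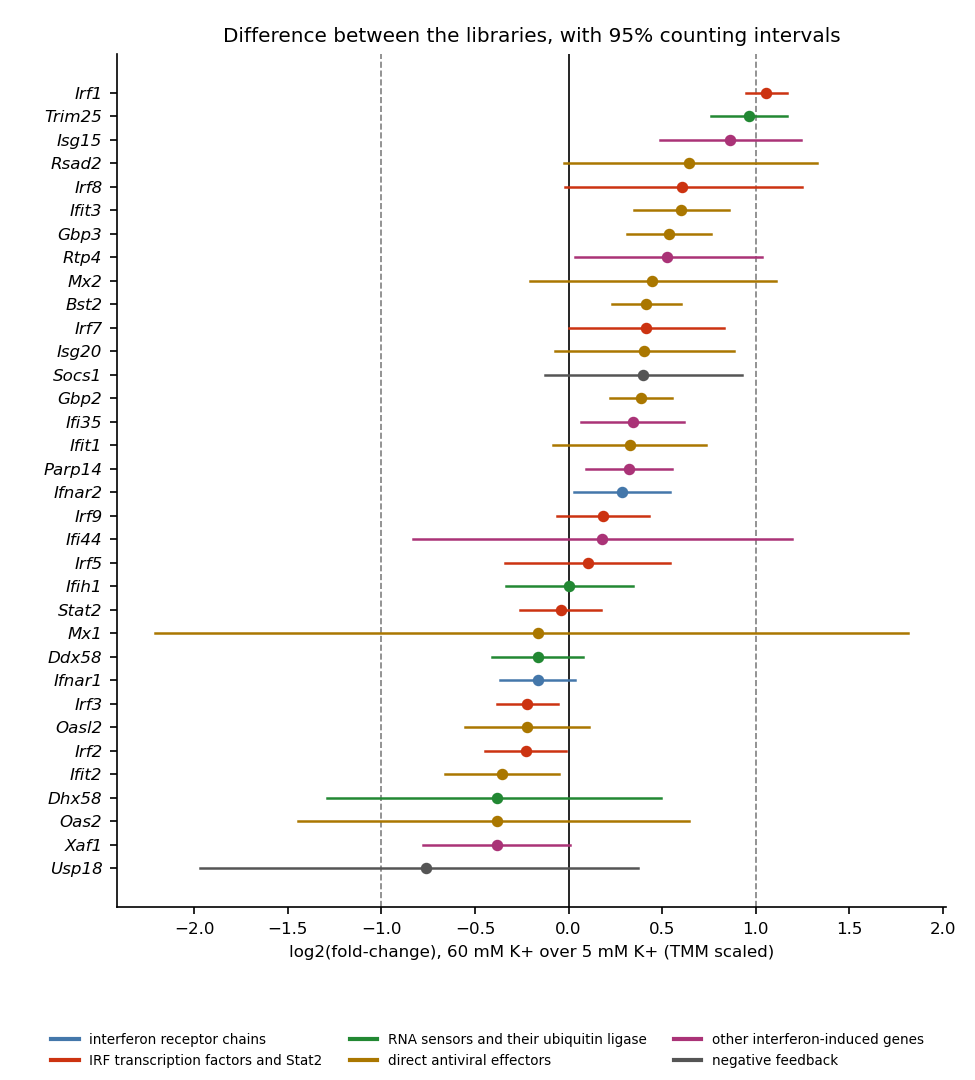
log2(fold-change) of each of the 34 genes, ordered by size, with lines for 95% counting intervals and colors for roles. Dashed lines mark -1 and 1; Irf1 at 1.06 lies past 1, and Trim25 at 0.96 lies just short of it.

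Of the IRF transcription factors and Stat2, Irf1 stood apart. Irf1 (ENSMUSG00000018899; chromosome 11, 53583516 to 53591876 on mm9), a transcription factor that activates antiviral and antigen presentation genes, had 1004 reads in control arteries and 1946 in depolarized arteries. It was thus 2.08-fold higher, at 1.06 on the log2 scale (interval 0.95 to 1.17). Among all genes with at least 10 reads, 763 had a larger value. With total-count scaling log2(fold-change) of Irf1 was 0.85, and when edgeR's exact test was given a biological variation of 0.2 (coefficient) Irf1 was no longer past both thresholds. An annotated gene on the opposite strand, Gm17334, overlaps Irf1 and had 24 and 34 reads. The library kit is not stated to mark strand, so that the reads of such pairs cannot be told apart.

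The next most abundant IRFs, Irf3 and Irf2, were lower in depolarized arteries by the counting interval. Irf3, which is activated by phosphorylation downstream of the RNA sensors and turns on the interferon-beta gene, had 690 and 552 reads, a log2(fold-change) of -0.22 (-0.38 to -0.06). Irf2, which can oppose Irf1 at shared sites, had 396 and 315 reads, a log2(fold-change) of -0.23 (-0.45 to -0.01). The counting interval of Irf1 therefore lay far from those of Irf2 and Irf3. Irf7, the IRF that amplifies interferon-alpha production and is itself interferon-induced, had 91 and 113 reads (0.41, interval 0.00 to 0.83).

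The remaining genes of this group had intervals that reached across 0. Irf8, which is needed for macrophage and dendritic cell development, had 38 and 54 reads (0.61, interval -0.02 to 1.25). Irf5, a myeloid IRF that acts after Toll-like receptors, had 89 reads in both libraries. For Irf9 and Stat2, which act together in the ISRE-binding complex, log2(fold-change) was 0.19 (-0.06 to 0.43) and -0.04 (-0.26 to 0.18). With total counts the interval of Stat2 lay wholly below 0. Irf3, Irf5, Irf7, Irf8 and Irf9 each overlap another annotated gene. Macrophage markers did not move together beside these genes. Of 12 markers, 2 had intervals above 0 (all genes, 25.0%), 3 below 0 (all genes, 20.3%) and 7 across 0. Their summed level was 53.6 FPKM in control and 48.0 FPKM in depolarized arteries as deposited, and 49.8 and 51.6 FPKM after division by the TMM factors, so that its direction depended on the scaling. In bulk tissue, fewer cells of a type and less RNA per cell cannot be told apart.

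The receptor chains stayed within a log2(fold-change) of 1 in both directions. Ifnar1 had 461 reads in control and 383 in depolarized arteries, a log2(fold-change) of -0.17 (-0.37 to 0.03). With total counts or upper-quartile scaling its interval lay wholly below 0. Ifnar2, its neighbor on chromosome 16, had 242 and 275 reads, a log2(fold-change) of 0.29 (0.03 to 0.54). Their intervals met at 0.03. Ifnar2 overlaps Il10rb on the same strand, and its value was 0.08 with total counts.

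Among the RNA sensors and their ubiquitin ligase, Trim25 was the exception. Trim25 (chromosome 11, 88860690 to 88881607 on mm9), a ligase that adds ubiquitin to the sensor RIG-I, had 316 reads in control and 574 in depolarized arteries. Its log2(fold-change) of 0.96 (0.76 to 1.17) was the second largest of the members and just short of the threshold of 1. No annotated gene overlaps it. The sensors themselves had intervals across 0. Ddx58, which encodes RIG-I, had 310 and 258 reads (-0.16, interval -0.41 to 0.08). With total counts the interval of Ddx58 lay wholly below 0. Ifih1, which encodes the long-RNA sensor MDA5, had 152 and 142 reads, a log2(fold-change) of 0.00 (-0.34 to 0.34). Dhx58, which encodes the regulatory helicase LGP2, had 28 and 20 reads (-0.38, interval -1.29 to 0.50). The interval of Trim25 therefore did not overlap that of any of the 3 sensors.

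The 12 direct antiviral effectors had a median log2(fold-change) of 0.39, with 4 intervals above 0, 1 below and 7 across it. None was past both thresholds. The intervals above 0 made up 33.3% of the effectors, compared with 25.0% of all genes, and those below 8.33%, compared with 20.3%. Whether these 12 genes differ from that background was not tested. Bst2, which encodes tetherin and holds budding virus at the cell surface, was the most abundant, with 432 and 537 reads (0.42, interval 0.23 to 0.60). The guanylate-binding proteins are GTPases that attack pathogen compartments. Gbp2 had 556 and 678 reads (0.39, interval 0.22 to 0.55), and Gbp3, its neighbor on chromosome 3, had 284 and 384 reads (0.54, interval 0.31 to 0.76). Reads of this family may be divided among similar copies.

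The Ifit genes, whose proteins bind foreign RNA ends and block translation, lie side by side on chromosome 19 and differed in direction. Ifit3 (34658021 to 34663221 on mm9) had 220 reads in control and 311 in depolarized arteries, which is 0.60 on the log2 scale (0.35 to 0.86). Ifit2 (34625184 to 34650909) had 214 and 156 reads, a log2(fold-change) of -0.35 (-0.66 to -0.05). The intervals of Ifit2 and Ifit3 did not overlap, although the genes are neighbors and began from similar read counts. Ifit1 (34715361 to 34724499) lay between them with 95 and 111 reads (0.33, interval -0.08 to 0.74). Ifit3 has a near-identical copy in the mouse, so that its count is uncertain.

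The other effectors had intervals across 0 and, except for Oasl2, few reads. Oasl2 and Oas2 belong to the 2′-5′ oligoadenylate synthetase family, which acts with RNase L. Oasl2 had 174 and 139 reads (-0.22, interval -0.55 to 0.11) and Oas2 had 21 and 15 reads. With total counts the interval of Oasl2 lay wholly below 0. Rsad2, which encodes viperin, had 33 and 48 reads (0.64, interval -0.03 to 1.33). Isg20, an exonuclease gene, had 69 and 85 reads (0.40, interval -0.07 to 0.88). The dynamin-like GTPase gene Mx2 had 37 and 47 reads, and Mx1 had 6 and 5 reads; C57BL/6 mice carry a defective Mx1 gene.

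Of the 6 other interferon-induced genes, 4 had intervals above 0, a share to be read against the 25.0% of all genes. With total counts Isg15 was the only one of them above 0. Xaf1 lay wholly below 0 with total counts, with upper-quartile and with median-of-ratios scaling. Isg15 (chromosome 4, 155573533 to 155574927 on mm9), a ubiquitin-like protein gene, had 95 reads in control and 161 in depolarized arteries. Its log2(fold-change) of 0.86 (0.49 to 1.24) was the third largest of the members, and it was 0.65 with total counts. Parp14, an ADP-ribosyltransferase gene, had 297 and 346 reads (0.32, interval 0.09 to 0.55). Ifi35 had 204 and 241 reads (0.34, interval 0.07 to 0.62), and Rtp4 had 61 and 82 reads (0.53, interval 0.03 to 1.03). Ifi44 had 18 and 19 reads. Xaf1, which promotes apoptosis, had 133 and 95 reads (-0.38, interval -0.78 to 0.01).

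The feedback inhibitors among the members, Socs1 and Usp18, had intervals across 0. Socs1, which blocks the receptor-bound kinases, had 57 and 70 reads (0.40, interval -0.13 to 0.93). Usp18, which removes Isg15 from proteins and blocks signaling at Ifnar2, had 20 and 11 reads, a log2(fold-change) of -0.76 (-1.97 to 0.37). These wide intervals allow a change of more than 1 for Usp18 and of up to 0.93 for Socs1. At this depth, values within each interval could not be told apart.

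**Figure D3:**
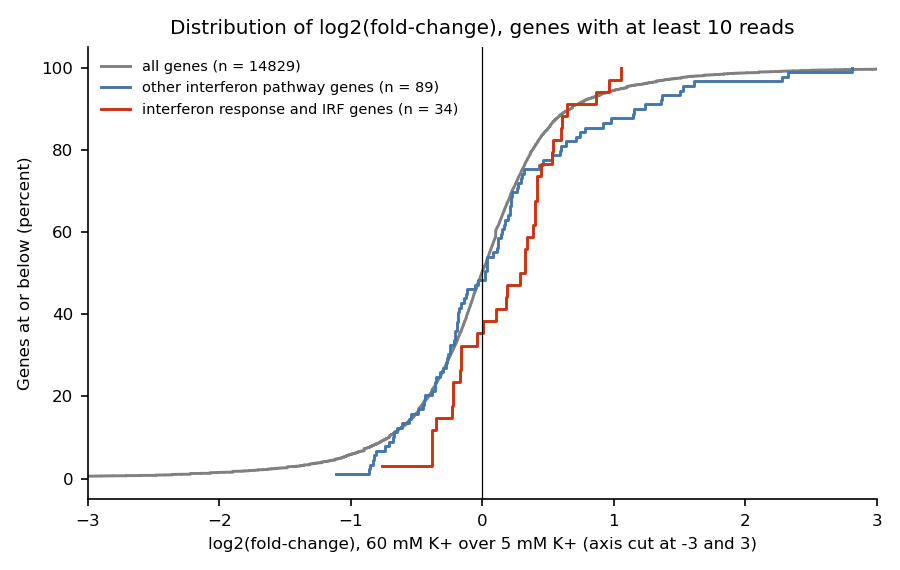
Share of genes (percent) at or below each log2(fold-change), for all genes, other interferon pathway genes and the 34 interferon response and IRF genes, each with at least 10 reads. The 34 genes have a median of 0.30, to the right of all genes at -0.0047, and end at 1.06, while the other pathway genes have a median of 0.02 and reach 2.81.

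A wider list of 126 other interferon pathway genes, chosen with earlier results of these data known, was examined. Of these, 107 matched an identifier and 97 had at least 1 read. Of the 97, 10 were past both thresholds and higher in depolarized arteries and 1 was lower, compared with 2.11% and 1.10% of all genes. Their median log2(fold-change) was 0.02 over 89 genes with at least 10 reads, with 26 intervals above 0 (29.2%) and 18 below (20.2%), close to the shares of all genes. When edgeR's exact test was given a coefficient of variation of 0.2, only Cish and Cxcl10 of the 11 called genes were still past both thresholds, and at 0.4 none was, of these or of all genes. Of those 11 genes, the study's own list holds only Socs3, Ptpn1 and Ptpn2. Gbp5 entered under an older identifier with 3 and 0 reads. The identifier ENSMUSG00000105504, under which the study lists Gbp5, is outside these counts. It had 254 and 761 reads (1.68, interval 1.48 to 1.90) and was past both thresholds. Of 20 interferon ligand genes listed, only 8 matched an identifier, and the reads of the others were not seen. Reads on the matched interferon genes were nearly absent. Of 8 matched ligand genes, 7 had 0 reads in both libraries, among them Ifng, and Ifnb1 had 0 and 1 read. A count of 0 allows up to 3 counts, which is 0.266 CPM (counts brought to a common library size) for control and 0.286 CPM for depolarized arteries.

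The other feedback inhibitors held 4 of the 10 increases, out of 7 genes listed, and 2.11% of all genes were past both thresholds in that direction. These genes were chosen with earlier results of these data known, and the study's own list already held Socs3, Ptpn1 and Ptpn2. The count is therefore a description and no test. Socs3, which blocks receptors of the IL-6 family, rose from 4161 to 11839 reads (1.61, interval 1.56 to 1.66). Cish, a related inhibitor of STAT5 signaling, rose from 44 to 199 reads (2.28, interval 1.80 to 2.78). The tyrosine phosphatase genes Ptpn2 and Ptpn1, whose proteins remove phosphate from JAK and STAT proteins, rose with log2(fold-change) of 1.53 (1.34 to 1.72) and 1.24 (1.11 to 1.37). Socs2 was just short of the threshold at 0.98, and Pias1 was at -0.32 (-0.48 to -0.16). The interval of Socs1 lay wholly below those of Socs3, Cish, Ptpn1 and Ptpn2.

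Among kinases, receptors and STATs, no gene was past both thresholds. Of 8 genes, 4 had intervals above 0 and 2 below, compared with 25.0% and 20.3% of all genes. Stat3, which carries IL-6 family signals, had 3109 and 5470 reads (0.92, interval 0.85 to 0.98). Jak1 was at 0.60 (0.48 to 0.71) and Jak2 at 0.15 (0.01 to 0.29), whereas Tyk2 was at -0.30 (-0.55 to -0.05). Ifngr1 was at 0.08 (-0.03 to 0.19) and its partner chain Ifngr2 at -0.45 (-0.65 to -0.26), and Il10rb was at 0.26 (-0.09 to 0.61).

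Of 13 matched sensing genes and adaptors, Tmem173 and Myd88 were past both thresholds and higher, compared with 2.11% of all genes. Of the 11 with at least 10 reads, 2 had intervals above 0 and 2 below. Tmem173, which encodes the DNA-signaling adaptor STING, rose from 64 to 169 reads (1.50, interval 1.08 to 1.94). Myd88, the adaptor of Toll-like and IL-1 receptors, rose from 383 to 793 reads (1.15, interval 0.97 to 1.33). Among interferon-induced genes outside the 34, Cxcl10 rose from 18 to 118 reads (2.81, interval 2.09 to 3.62). Oasl1, a translational inhibitor of Irf7, rose from 6 to 28 reads (2.32, interval 1.02 to 3.89). Ifi47 rose from 63 to 151 reads and Slfn2 from 31 to 64 reads. Iigp1, an interferon-gamma-induced GTPase gene, fell from 216 to 93 reads (-1.11, interval -1.48 to -0.76). Over 34 other type I interferon-induced genes with at least 10 reads, 8 intervals lay above 0 and 8 below, with a median of -0.16. These shares, 23.5% each, are close to the 25.0% and 20.3% of all genes.

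**Figure D4:**
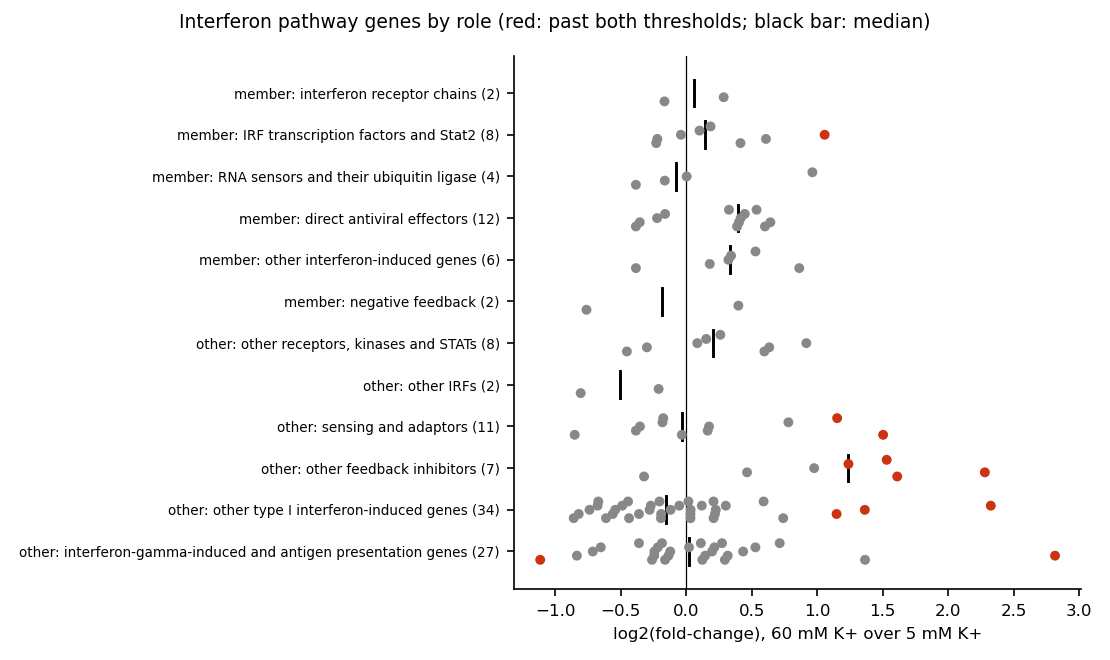
log2(fold-change) of interferon pathway genes with at least 10 reads, by role, with members above and other genes below, and the number of genes in brackets. Red points passed both thresholds and black bars are medians. The other feedback inhibitors, chosen with earlier results of these data known, have the highest median, 1.24.

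Markers of other cells in the artery were read beside these values. Over all genes with at least 10 reads, 25.0% of intervals lay above 0 and 20.3% below. Smooth muscle was the dominant signal, with Acta2 at 12480 and 12366 FPKM in the control and depolarized libraries as deposited, and 11610 and 13293 FPKM after division by the TMM factors. Of 6 smooth muscle markers, 4 had intervals above 0 and 2 below. Of 6 endothelial markers, 5 had intervals above 0 and Kdr, with 168 and 73 reads, lay below. The summed level of the endothelial markers was 1299 FPKM in control and 1537 in depolarized arteries as deposited. After division by the TMM factors it was 1208 and 1652 FPKM. Of 6 fibroblast markers, 5 had intervals below 0 and 1 above, with sums of 2364 and 1880 FPKM as deposited. After division by the TMM factors the sums were 2199 and 2021 FPKM. The adipocyte markers summed to 68.5 and 44.6 FPKM as deposited, and to 63.8 and 47.9 FPKM after division by the TMM factors. Of 5 with at least 10 reads, 3 had intervals below 0 and 1 above. Of 10 lymphocyte markers, 4 had 0 reads in both libraries, and the 10 together had 9 reads in each. Of 6 genes listed as dendritic cell markers, Flt3 had 0 reads in both and 4 had under 10 reads. Only Zbtb46 had more, with 218 and 381, and its reads could not be assigned to a cell type. The part of these shifts in the values of the interferon genes was not tested.

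Promoter sequences were found for 27 of the 34 members, some with more than 1 start. The ISRE core was present in 14 of the 27 (51.9%), compared with 9.76% of 27025 genes with a promoter in RefSeq. GAS was present in 9 (33.3%, compared with 9.55%) and the NF-kB consensus in 8 (29.6%, compared with 12.6%). The members were chosen by name for their place in the pathway, so that these shares describe the choice and not an effect of K+. The full cAMP response element TGACGTCA was present in 0 of 27, compared with 2.03% of genes. Shorter forms of this element were not searched for, whereas the study counted both classic and nonclassic forms. Both strands were searched, and ISRE, GAS and NF-kB matches can overlap, as in the Ifit2 promoter shown above. The 14 members with an ISRE match had a median log2(fold-change) of 0.39 and ranged from -0.23 for Irf2 to 0.96 for Trim25. The 13 without one had a median of 0.19 and ranged from -0.38 for Xaf1 to 1.06 for Irf1. Absence means only that the exact core was not in the windows searched, since looser forms were not looked for. The 8 with an NF-kB match had a median of 0.39 and included Irf1 and Trim25, as well as Irf2 and Ifit2 at the lower end. The ranges of members with and without a match overlapped for every motif that was found. A match is a description of the letters, and binding was not measured.

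**Figure D5:**
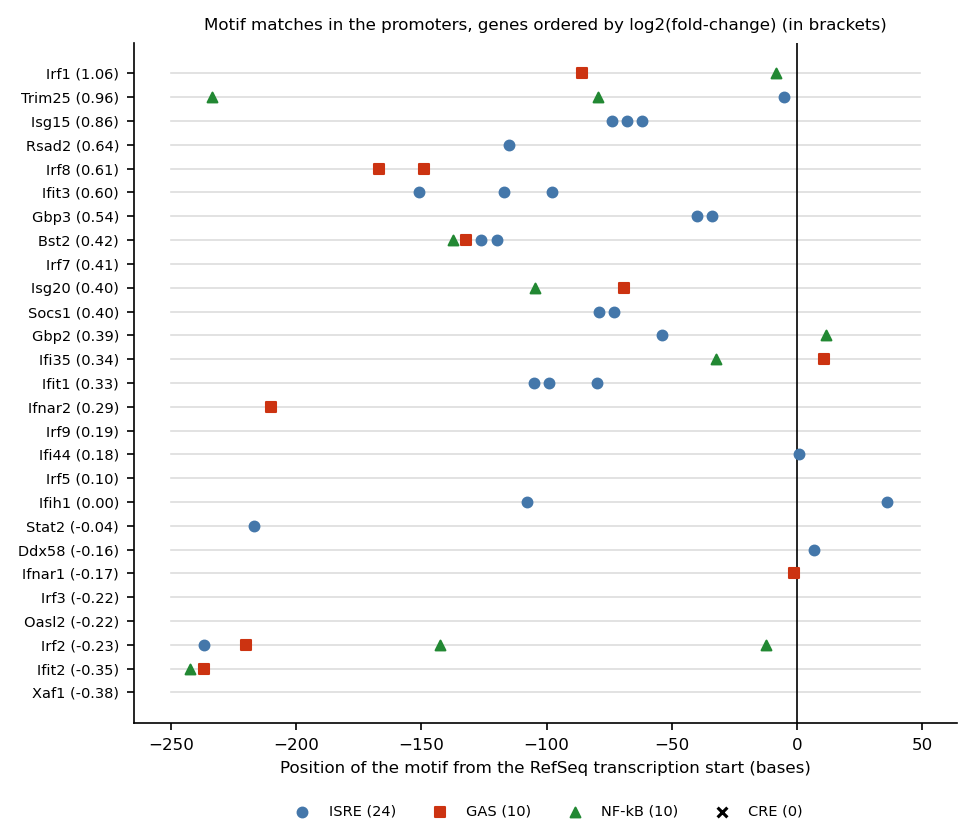
Position of each motif match from the RefSeq transcription start (in bases, start at 0) in 27 members, ordered by log2(fold-change), which stands in brackets. Isg15, Ifit1 and Ifit3 carry 3 ISRE matches each, and Irf1 carries a GAS and an NF-kB match. No full cAMP response element TGACGTCA was found, and shorter forms were not searched for.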

How the data were processed

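Mesenteric arteries of mice were profiled by RNA-seq in 1 control (5 mM K+) and 1 depolarized (60 mM K+) library. The authors deposited raw read counts per gene and FPKM values made from the same reads. The submitters' processing notes name TopHat2 2.0.12, HTSeq 0.6.1, edgeR 3.0.8 and the builds mm8 and mm9, and the methods name mm9. For the counting mode and the annotation nothing was given in the sources used here. Of the listed genes, 32601 of 55573 had an identifier in GENCODE vM1, which gave symbols and mm9 positions, so that genes listed only under later identifiers were not matched. The ratio of counts to deposited FPKM differed between the libraries by the same factor for every gene, that of their total reads. A gene that overlaps another, or has a near copy, may have lost or shared reads.

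Library sizes were scaled with TMM in edgeR 4.0.16 (R 4.3.3), which gave factors of 1.07 and 0.930. A count of 0 was set to 0.5. The DEGSeq random-sampling test was recomputed from its formula on all genes with a read, without a filter, and adjusted by Benjamini-Hochberg. A quasi-likelihood fit needs replicates and was not run. Counting intervals and medians used genes with at least 10 reads. PCR reads are not independent molecules, so that intervals and floors cover counting error only. The scripts were tested on simulated data. Alternatives were other scalings (DESeq2 1.42.0 for median of ratios), other filters and thresholds, assumed coefficients of variation, FPKM and a shorter promoter window. All 34 members are named; of other pathway genes, those past both thresholds and the receptors, kinases and STATs are named, except for a result that is not reported here. Socs2, Pias1 and Zbtb46 were added after their values were seen. The members, gene lists and motifs were chosen with earlier results of these data known. Of the markers, Acta2, Kdr and Flt3 are named as examples. Figures were drawn with matplotlib 3.10.9.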

Additional observations from a re-analysis of the deposited data

How the results depend on the processing

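No paired analysis was possible because there was a single library for each condition, and no replicate could be left out. Irf1 was the 1 member past both thresholds, and this count was 0 with total counts, 0 with an assumed coefficient of variation of 0.2, 0 with 0.4 and 0 when the interval end closest to 0 had to pass the fold threshold (0.95 for Irf1). It was 1 with a coefficient of 0.1, with median-of-ratios or upper-quartile scaling, with at least 10 reads and with a q-value of 0.05. Of other pathway genes, 10 were past both thresholds and higher and 1 lower. Higher were 2 at a coefficient of 0.2 and 0 at 0.4, and lower were 0 at either and 4 with total counts, settings chosen after seeing the data. The added spread and the shift of 0.21 are built into these settings. Intervals wholly above 0 numbered 12, and 7 with total counts; intervals wholly below 0 numbered 3, 8 with total counts and 5 with upper-quartile scaling. The median log2(fold-change) of 0.30 was 0.10 with total counts, and 0.094 and 0.082 with FPKM and pseudocounts of 0.1 and 1, since FPKM was scaled by total counts. With at least 50 reads it was 0.34. GAS matches fell from 9 to 5 members in the last 200 bases of the promoter. For single members, 6 of 34 values left their counting interval with total counts and 4 changed sign; these 4, Irf5, Irf9, Ifih1 and Ifi44, had intervals across 0. Genes with few reads, such as Mx1, Oas2, Usp18 and Ifi44, are limited by depth.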
